A study of Arabidopsis thaliana with 6 samples.

Results

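Broad FUL regions are the stretches of the Arabidopsis genome, 2 kb or longer, that a peak caller reported as 1 enriched region after chromatin immunoprecipitation of FRUITFULL (FUL). They were taken from the deposited peak lists of 2 tissues by width alone, the end minus the start of each region being 2000 bp or more. This gave 450 of 3650 regions in the inflorescence meristem (IM) list and 209 of 3494 in the pistil list, 659 of 7144 in all. As shares of their lists these are 12.3% (Wilson 95% interval 11.3 to 13.4%) and 5.98% (5.24 to 6.82%), and the intervals cover counting error only. The members were chosen by width, so widths, and the folds and summits that come from the same peak call, are described here and not tested.

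FUL is a MADS-domain transcription factor. Proteins of this family bind DNA as dimers at short sequences called CArG boxes, and pairs of dimers can bind a pair of such boxes with the DNA looped between them. FUL acts in the floral transition at the shoot tip and later in the growth of the fruit valves. A transcription factor usually gives a sharp peak in ChIP-seq, where DNA bound by the protein is pulled down and sequenced, and a wide region can hold several nearby summits that the caller could not separate.

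Each tissue had 2 ChIP samples and 1 input sample, 6 samples in all, from the F2 of Ler and Col plants kept at 21 °C under long days (16 h light, 8 h dark). The IM plants, aged 4 to 5 weeks, carried the ap1-1 and cal-1 mutations, the 35S:AP1-GR transgene, which was not induced, and pFUL:FUL-GFP; the loss of AP1 and CAL function keeps the shoot apex forming meristems in place of flowers. Pistils were taken at stages 12 to 16 from ful-1 mutants that carried pFUL:FUL-GFP. GFP beads therefore precipitated a tagged FUL made from the FUL promoter in both tissues, and the FUL locus is present in the transgene as well as at its own place. Tissue and genotype differ together and cannot be told apart. Peaks were called on the pooled replicates of each tissue, so no spread between replicates can be given, read depth is unknown, and each value below is the authors' single value for a region. Fold means the enrichment at the listed summit, a linear ratio, and is ranked only within its own list. Coordinates are on TAIR10. The samples were bulk tissue, so whether the summits of a wide region were bound in the same cells cannot be told.

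The widest region of the IM list lay on the FUL gene itself. The region ran for 9767 bp on chromosome 5 (24501690 to 24511456), covered the whole of FUL, and reached into both neighbours, the receptor kinase gene RLK1 and COB, a gene of oriented cell expansion. Its listed summit stood 82 bp outside FUL with a fold of 8.10 (rank 34 of 3650) and bore the letter f, which means that at least 6 summits were called in it. In the pistil list the same locus held a region of 5096 bp (24504008 to 24509103), wider than all but 2 others there, with letter e and a fold of 4.68, and a separate narrow region. The pistil region touched FUL but did not cover it, and its listed summit lay 2438 bp from the gene and 2356 bp from the IM summit. This locus was thus broad in both tissues, with different summits listed.

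The FUL region in pistil also had a strong p for its fold. Its −log10 p was 239.6, while the other 294 pistil regions with a fold within 5% of its own had a median of 91.5 and a maximum of 145. In IM the FUL region had a −log10 p of 203.4, and the 48 regions of like fold had a median of 165 and a maximum of 208. Reads of the transgene and of the FUL gene cannot be told apart in these lists.

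**Figure D1:**
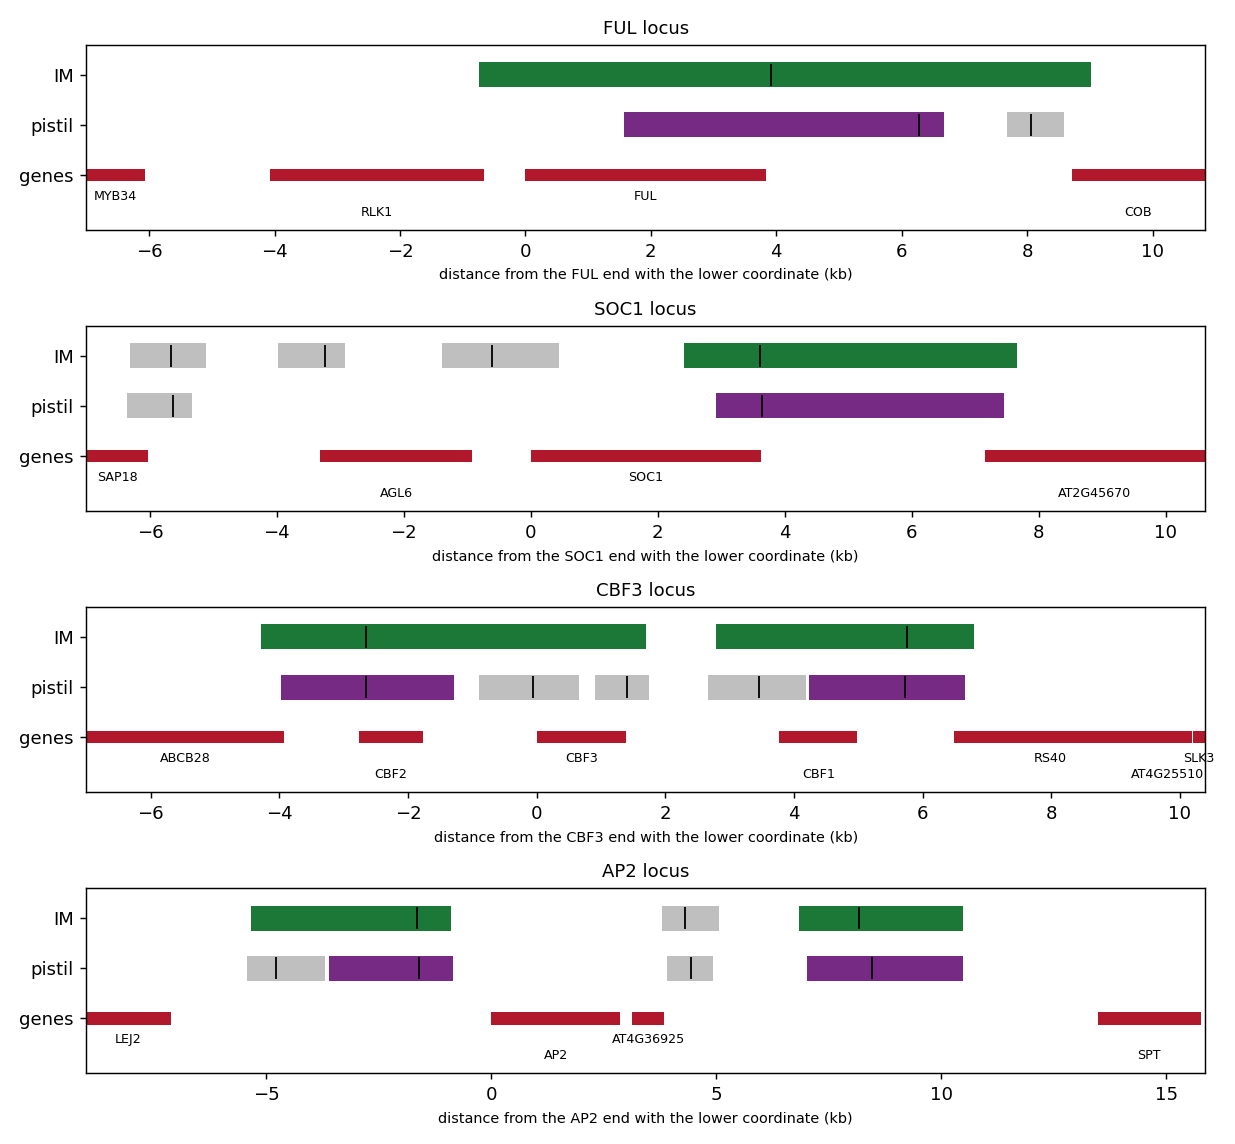
Maps of 4 loci: bars are listed regions in the IM list (top row, green) and the pistil list (middle row, purple), grey where narrower than 2 kb, with a black tick at the listed summit, and red bars are protein-coding genes. The horizontal axis is the distance in kb from the end of the named gene with the lower coordinate. The IM region at FUL spans 9767 bp, and the CBF locus holds 2 broad regions in each tissue.

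Other flowering regulators lay at or in broad regions of both tissues. SOC1, a MADS-box gene that promotes flowering, had the fifth widest IM region, 5248 bp on chromosome 2 (18809925 to 18815172, fold 8.36), and the sixth widest pistil region, 4536 bp (18810424 to 18814959, fold 14.3). Both ran from SOC1 across the gap to AT2G45670, and their listed summits were 39 bp apart. TOE3, an AP2-like gene, had a 4980 bp region in pistil (chromosome 5, 26804210 to 26809189, fold 14.2, rank 10) and a 3499 bp region in IM (26803774 to 26807272, fold 7.94, rank 45), with summits 56 bp apart. The pistil region also reached DEAR2, a gene of the DREB family.

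AP2, a floral homeotic gene, was touched by no region but had broad regions on both sides. The first covered 4434 bp in IM (chromosome 4, 17395269 to 17399702, fold 7.76) and 2743 bp in pistil (17397006 to 17399748). The pistil fold of 15.1 there was the highest of all broad regions and the second of its list. The listed summits stood 1647 bp and 1611 bp from AP2 and 36 bp from each other. A second pair lay between AP2 and the carpel gene SPT, 3643 bp wide in IM (17407458 to 17411100, fold 8.00) and 3465 bp in pistil (17407626 to 17411090, fold 11.0), with no gene of any kind under it. Their summits lay over 4 kb from the nearest protein-coding gene, which was AT4G36925 and neither AP2 nor SPT (4337 bp and 4625 bp). TOE1, a further AP2-like gene, was touched by regions of 2251 bp in IM (fold 6.74) and 2162 bp in pistil (fold 8.29).

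The tandem cluster of CBF genes, which encode transcription factors of the cold response, lay almost wholly under 2 broad IM regions separated by 1077 bp. The first, 5996 bp wide (chromosome 4, 13013721 to 13019716, fold 8.89), covered the whole of CBF2 and CBF3 and touched the transporter gene ABCB28. The second, 4011 bp wide (13020794 to 13024804, fold 9.18), covered the whole of CBF1 and touched RS40. In pistil the cluster was split: a 2689 bp region covered CBF2 (13014029 to 13016717, fold 11.9), a 2416 bp region touched CBF1 (13022248 to 13024663, fold 9.54), and narrow regions lay between them. The listed summits of these 2 pairs were 3 bp and 37 bp apart, and the IM region was the wider at both.

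ERF4, an ethylene response factor gene that encodes a repressor, had the widest pistil region, 5362 bp (chromosome 3, 5120997 to 5126358, fold 4.56), and the fourth widest IM region, 5529 bp (5120903 to 5126431, fold 5.38). The 2 regions shared 97.0% of their joint extent, and each covered the whole of ERF4. The pistil region bore the letter h, at least 8 summits and the latest letter among broad regions of either list, while the IM region bore c. Their listed summits lay 2796 bp apart, the IM one inside ERF4 and the pistil one outside it, nearest to AT3G15220 at 1311 bp.

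The remaining IM regions among the 10 widest had folds from 3.20 to 5.44. They lay at TSD2, a pectin methyltransferase gene (6587 bp, fold 3.95), at the D-type cyclin gene CYCD4;1 (5150 bp, 4.91), at AT1G79120 (4970 bp, 5.44), over the beta-expansin gene EXPB3 and AT4G28240 (4964 bp, 4.69), at AT4G17670 (4886 bp, 3.20) and, equal in width, at AT1G69760 (4869 bp, 4.01) and MYB12 (4869 bp, 4.33). In pistil the 10 widest included a region reaching into the MADS-box gene SEP3 (3995 bp, chromosome 1, 8595577 to 8599571, fold 11.1) and a region at the floral repressor gene TEM1 (3771 bp, fold 7.63). Both overlapped 2 narrow IM regions each and no broad one. The pistil regions at AT4G36640 (4142 bp, fold 5.69) and AT4G29780 (4057 bp, 5.04) were broad in IM too, at 3407 bp and 4592 bp.

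Among the widest pistil regions 2 stood apart by their low fold, and neither overlapped an IM region. The first, 5182 bp on chromosome 3 (13536583 to 13541764), held only transcribed pseudogenes and lay 7977 bp from the nearest protein-coding gene. Its fold was 3.24 and its −log10 p 207.1, against a median of 42.1 and a maximum of 114 among 578 regions of like fold. The second, 4566 bp on chromosome 2 (3435171 to 3439736), had the lowest fold of all pistil broad regions, 1.91, with a −log10 p of 63.8, and touched AT2G07721 and AT2G07722. No other pistil region had a fold within 5% of it. A narrower one, on chromosome 2 near AT2G07565 (3187675 to 3190109, 2435 bp), had a −log10 p of 224.8 at a fold of 3.95, where 445 regions of like fold had a median of 65.7 and a maximum of 195. Over all broad regions the −log10 p was near that of regions of like fold, with a median ratio of 1.04 in IM and 0.99 in pistil. The ratio passed 1.5 in 2 IM and 6 pistil regions.

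Broad regions had folds over most of the range of their lists. The median fold of broad regions was 4.10 in IM (quartiles 3.37 to 5.35) and 5.13 in pistil (3.80 to 7.60), where all regions had medians of 3.77 and 4.10. These medians would stand at percentiles 61.3 and 68.4 of their lists. Of the 365 IM regions with the highest folds 78 were broad (21.4%, against 12.3% of the whole list), and of 349 such pistil regions 47 were (13.5%, against 5.98%). A fold below the median of the list was held by 178 broad IM regions (39.6%) and 71 broad pistil regions (34.0%), where by construction 50% of all regions lie below it. In IM the lowest fold of a broad region was 2.66, and the highest, 9.32, belonged to a 4068 bp region on chromosome 2 (17029027 to 17033094) that touched the autophagy gene ATG18C and held MIR319c, a microRNA gene whose product targets TCP genes. The pistil region at that site was only 1462 bp wide but had the highest fold of its list, 15.3, with a summit 13 bp from the IM one.

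Further IM broad regions with high folds lay at AT1G19330 (9.04), 2327 bp from the auxin response factor gene ETT (8.91), at the RNA-binding protein gene LARP1c (8.64), at the receptor kinase gene HSL1 (8.42), inside the abscisic acid regulator gene ABI5 (8.32) and at AT1G73390 (8.13). In pistil, a 2166 bp region on chromosome 2 (7830945 to 7833110) had a fold of 14.3 and the highest −log10 p of its list, 717.4. Its nearest gene was SAUR10, an auxin-related growth gene, 1254 bp from the summit, and the IM list held a region of 875 bp there with a fold of 3.09. Pistil broad regions at AT1G75900 (fold 14.0), AT4G37110 (12.4), AT2G30230 (12.3), the kinase gene CIPK12 (12.1) and AT1G78450 (12.0) followed. Among these, the one inside AT2G30230 had no IM partner.

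**Figure D2:**
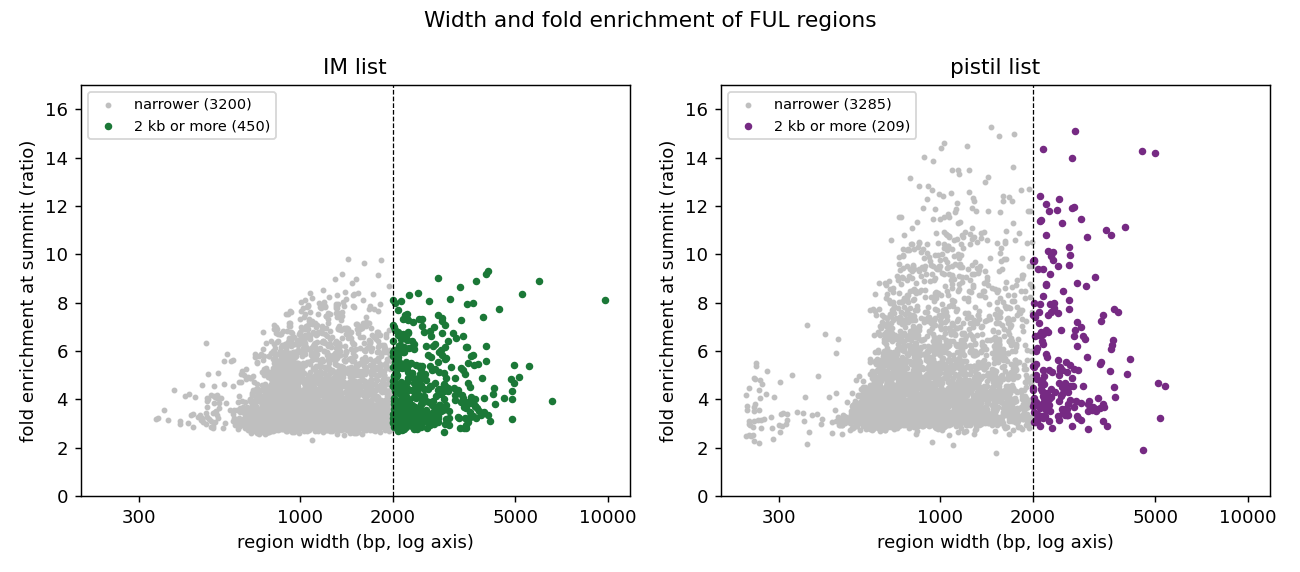
Width in bp (log axis) against fold enrichment at the summit for every region of the IM list (left) and the pistil list (right), 1 point per region, grey below 2 kb and coloured at 2 kb or more, with the threshold as a dashed line. Broad regions cover most of the fold range, from 2.66 to 9.32 in IM and from 1.91 to 15.1 in pistil.

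At the limit of the rule, the narrowest broad IM regions measured 2002, 2004 and 2004 bp (folds 4.56, 5.79 and 8.12) and the widest below it 1999, 1997 and 1997 bp (4.27, 3.60 and 4.26). In pistil the corresponding widths were 2000, 2002 and 2004 bp (folds 3.73, 7.50 and 4.49) and 1995, 1995 and 1994 bp (3.97, 4.97 and 3.10). The threshold therefore cuts a continuous range. The median broad region measured 2356.5 bp in IM and 2434 bp in pistil. Of the broad regions 91 in IM and 39 in pistil were 3000 bp or wider, and 23 and 8 were 4000 bp or wider. Broad regions held 25.2% of all base pairs listed in IM and 14.6% in pistil.

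Nearly all broad regions were listed as part of a set of several summits. Each list gives 1 row per region, and a letter at the end of the peak name marks which of its summits is listed, in order along the region. The listed summit lay at a median of 25.9%, 61.6%, 76.8% and 81.0% of the width for letters a, b, c and d in IM, and at 20.1%, 43.8%, 66.4% and 80.3% in pistil. A letter was present in 422 of 450 broad IM regions (93.8%, 91.2 to 95.7%), where 27.2% of all IM regions had one. It was present in all 209 broad pistil regions (100%, 98.2 to 100%), against 32.3% of all pistil regions. Letters were not particular to regions of 2 kb or more. They stood on 69.2% of IM and 95.3% of pistil regions from 1500 bp to below 2000 bp. Below 1000 bp the shares were 2.65% and 4.76%. The number of summits is a lower bound, since later summits are not listed. Letter c or later, at least 3 summits, was borne by 101 broad IM regions (22.4%, against 3.26% of all IM regions) and 88 broad pistil regions (42.1%, against 4.52% of all pistil regions).

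The 28 broad IM regions without a letter had a single summit. They included the regions at HSL1 (2416 bp, fold 8.42), at ATH1, a homeobox gene of the shoot apex (2243 bp, 7.27), at PHB, a homeobox gene of organ polarity (2248 bp, 6.79), and inside KNAT6, a KNOX gene of the meristem (2099 bp, 5.98). At the other end, letter e or later stood on 6 IM regions and 13 pistil regions. In IM these lay at FUL, EXO, the gibberellin receptor gene GID1B, the DELLA gene RGA, AGC1.7 and AT4G36820. The pistil ones included ERF4, FUL, NAC019, LNG2 (a cell elongation gene), J11, BT5 and AGC1.7. The IM ones other than FUL had folds between 3.17 and 4.23, around the list median of 3.77. In pistil some lay above the list median of 4.10, such as ERF4 (4.56), FUL (4.68) and a region nearest to AT5G19090 (6.46). Others lay below it, such as J11 (2.89) and AGC1.7 (3.51).

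**Figure D3:**
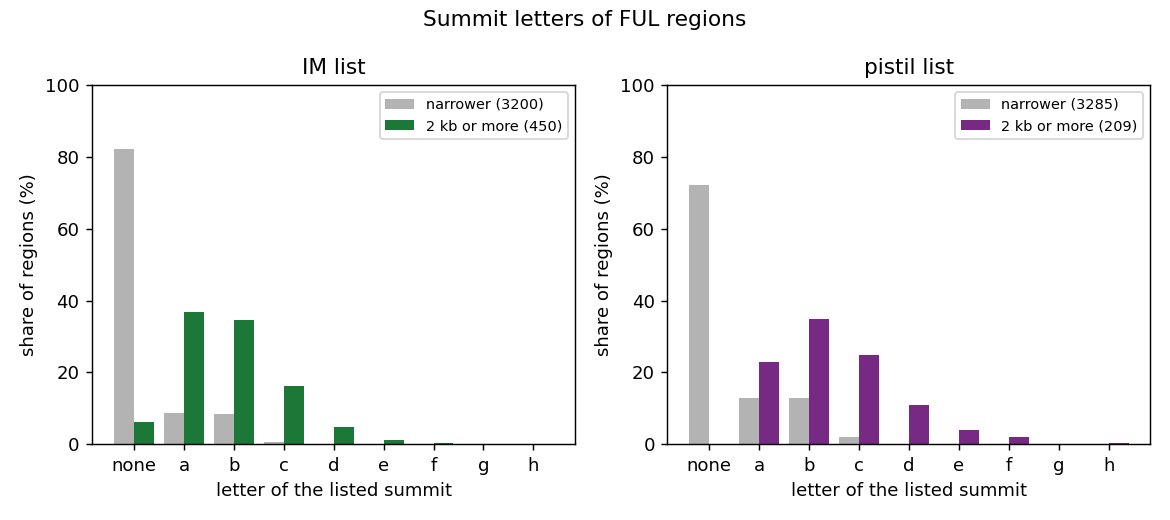
Share of regions (%) by the letter of the listed summit in the IM list (left) and the pistil list (right), coloured bars for regions of 2 kb or more and grey bars for narrower ones. No letter means a single summit; 93.8% of broad IM regions and 100% of broad pistil regions had a letter.

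The next question was whether the same sites were broad in both tissues. Of the broad IM regions 110 of 450 overlapped a broad pistil region (24.4%, 20.7 to 28.6%), and of the broad pistil regions 110 of 209 overlapped a broad IM one (52.6%, 45.9 to 59.3%). The background was 5.04% for IM regions of any width and 11.5% for pistil regions of any width. Among regions of any width that had a partner in the other list, 8.48% of IM and 18.1% of pistil regions had a broad one. A wide region meets more partners by its width alone, so these shares are descriptions. The overlaps formed 110 pairs with no region used more than once.

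In the 110 pairs the IM region was the wider in 79 and the pistil region in 31. Regions of any width were also wider in IM, with medians of 1075.5 bp against 904 bp in pistil. The medians of all broad regions were 2356.5 bp and 2434 bp. In the pairs the median widths were 2650.5 bp in IM and 2504.5 bp in pistil, and the median fold was 4.37 in IM and 5.17 in pistil. The median overlap was 88.0% of the joint extent (quartiles 67.8 to 94.4%). Listed summits lay within 200 bp of each other in 72 pairs (65.5%, 56.2 to 73.7%), with a median gap of 79.5 bp and a largest gap of 4300 bp, at TSD2. The letter was the same in 39 pairs. Besides ERF4, FUL, SOC1 and TOE3, the widest pairs lay at AT4G29780, in the gap nearest to AT5G19090 (3711 bp in IM and 3650 bp in pistil), at AT1G79120, at the RING protein gene BRG3 (3918 and 3600 bp), at the chaperone gene J11 (3649 and 3484 bp) and between AP2 and SPT.

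**Figure D4:**
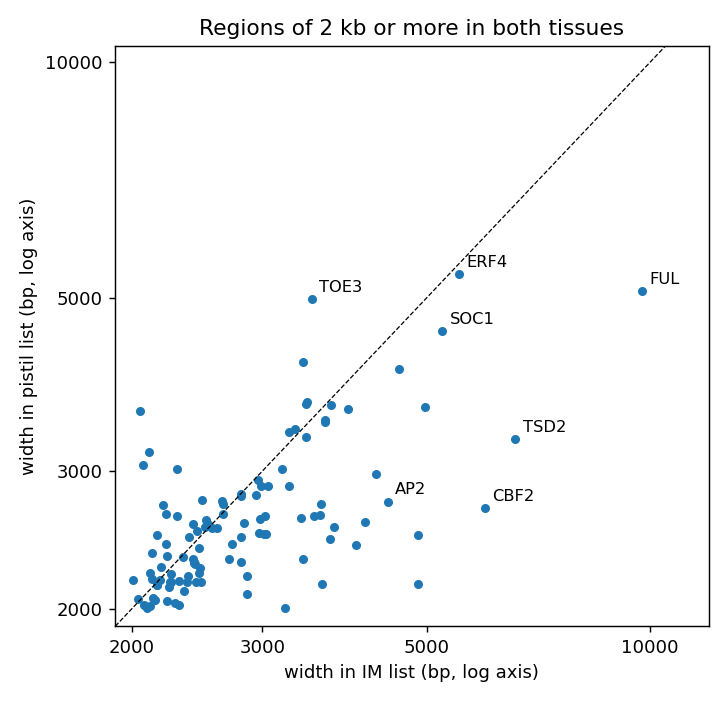
Width in the IM list against width in the pistil list (bp, both axes log) for the 110 sites of 2 kb or more in both, 1 point per site, with equality as a dashed line. FUL (9767 and 5096 bp) and CBF2 (5996 and 2689 bp) lie well below the line, ERF4 (5529 and 5362 bp) on it and TOE3 (3499 and 4980 bp) above it.

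Most other broad regions had a narrower partner. In IM 236 overlapped pistil regions that were all under 2 kb, and 104 overlapped none. In pistil these numbers were 60 and 39. Any partner was thus found for 76.9% of broad IM regions (72.8 to 80.5%), where 59.5% of all IM regions had one, and for 81.3% of broad pistil regions (75.5 to 86.0%), against 63.4% of all. The share with a partner went from 49.3% below 1000 bp to 95.7% at 4000 bp or more in IM (23 regions in the last range). In pistil it went from 57.4% below 1000 bp to 90.7% at 2500 to 3000 bp, and was 75% in the 8 regions of 4000 bp or more.

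A single broad region often met several regions of the other list. In IM 53 broad regions (11.8%) overlapped at least 2 pistil regions, against 1.78% of all IM regions, and in pistil 14 did (6.70%), against 0.601% of all. The IM regions at AP2 and CBF2, described above, are examples, as is one that covered the whole of AT1G75580 (4269 bp) and met 3 pistil regions, the widest of them 2977 bp. The broad regions with no partner had lower folds than those with one, with medians of 3.49 and 4.39 in IM and of 3.81 and 5.43 in pistil. This was not particular to broad regions. Narrower regions without and with a partner had medians of 3.42 and 4.12 in IM and of 3.66 and 4.45 in pistil. The highest fold of a broad IM region without a partner was 6.24, in a region touching the tubulin gene TUB2 (chromosome 5, 25179315 to 25181425). Next came one inside the gibberellin catabolic gene GA2OX4 (5.56), one at AGF2 (5.55), one at ERL2, a receptor kinase gene of stomatal patterning (5.38), one inside AILP1 (5.23) and one inside the cyclin gene CYCD3;2 (5.07). In pistil the second highest, after AT2G30230, lay at HIT3 (8.77). A region touching the cellulose synthase gene CESA2 followed further down (6.81).

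Genes were next counted under broad regions. A protein-coding gene was touched, by at least 1 bp, by 372 broad IM regions (82.7%, 78.9 to 85.9%), against 74.1% of all IM regions, and by 162 broad pistil regions (77.5%, 71.4 to 82.6%), against 63.8%. At least 2 genes were touched by 152 IM regions (33.8%, against 23.2% of all) and 46 pistil regions (22.0%, against 13.9%). A wide region reaches more genes by its length. In all, 525 genes were touched in IM (1.91% of 27444) and 208 in pistil (0.758%), 112 of them in both.

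Whole genes, from the first to the last annotated base, lay under 59 IM regions (13.1%, against 2.6% of all) and 20 pistil regions (9.57%, against 1.4%). Besides FUL, ERF4 and the CBF genes, the IM set held JAZ5 and ERF12, a jasmonate repressor and an ERF gene, and SZF1, a zinc-finger stress gene. It further held EXO, a growth gene of the brassinosteroid response, the shade-response gene PAR1, the cell wall genes XTH28, AGP15 and AGP20, the gibberellin-responsive gene GASA4, IAA15 and the cell cycle inhibitor gene KRP6. In pistil it held ERF4, CBF2, NAC019, GASA4, RALFL21 and GAE1 among others. SPL5, a gene of the age pathway of flowering, lay with AT3G15260 and AT3G15280 under a region that touched all 3 genes in both tissues, 2990 bp wide in IM (fold 5.70) and 2874 bp in pistil (6.99).

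Listed summits were compared with the same genes. They lay inside a protein-coding gene in 101 broad IM regions (22.4%, 18.8 to 26.5%), against 29.5% of all, and in 27 broad pistil regions (12.9%, 9.03 to 18.1%), against 26.0% of all. From 1 to 3 kb away lay 23.1% of broad IM and 27.3% of broad pistil summits, against 16.4% and 19.6% of all. Beyond 3 kb lay 18 IM regions (4.00%, against 3.34%) and 13 pistil regions (6.22%, against 5.24%). Summits were inside genes in 34.3% of IM regions below 1000 bp and 22.7% at 2000 to 2500 bp, and in pistil in 30.1% and 14.7%. The IM share did not fall steadily with width. It was 24.4% at 2500 to 3000 bp, 17.6% at 3000 to 4000 bp and 26.1% in the 23 regions of 4000 bp or more. In pistil these shares were 14.8%, 6.45% and 0% (8 regions in the last range). Genes made up a median of 23.9% of the length of broad IM regions and 15.8% of broad pistil regions, against 31.9% and 21.1% over all regions.

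Known pathways were followed through lists of named genes. Of 226 genes in 9 lists of flowering, meristem, fruit, hormone and clock genes, 26 were touched by a broad IM region and 15 by a broad pistil region. These shares are 11.5% and 6.64%, against 1.91% and 0.758% of all protein-coding genes. The lists were chosen with earlier results of these data known, so the shares are descriptions and were not tested. A region of any width touched 92 of the 226 genes in IM and 76 of the 226 in pistil. Of all 27444 protein-coding genes, such regions touched 3344 in IM (12.2%) and 2564 in pistil (9.34%). The higher share of list genes was thus seen for regions of any width and was not particular to broad ones. The widths and folds given below are those of the region, and its listed summit can lie nearest another gene. This was so for SVP, LSH3, HAM3 and CKX6 in IM, for SEP3 and GID1B in pistil, and for SPL5 and BZR1 in both tissues.

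Among 31 floral MADS-box genes 4 were touched in each tissue. FUL and SOC1 were touched in both. In IM the others were AGL42, a relative of SOC1 (2225 bp, fold 4.04), and the floral repressor SVP (3946 bp, 7.40). In pistil they were SEP3 and the valve margin gene SHP1 (2060 bp, 6.11). Of 31 flowering time genes 4 were touched in IM and 5 in pistil, with TOE1, TOE3 and SPL5 in both. TFL1, which keeps the inflorescence growing, was touched in IM (3501 bp, fold 6.19), while its relative BFT (2009 bp, 9.73) and TEM1 were touched in pistil. No test of a difference between tissues was made for these genes, and each of SVP, TFL1, SEP3, SHP1, BFT and TEM1 had a narrower region of the other list under its broad one.

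Of 30 shoot meristem and boundary genes 6 were touched in IM and 0 in pistil. Besides ATH1, PHB and KNAT6 they were the boundary genes CUC3 (2066 bp, fold 2.99) and LSH3 (3708 bp, 3.73) and the meristem gene HAM3 (3451 bp, 2.84). 6 genes of this list were touched by a pistil region of any width. Of 25 gynoecium and valve margin genes only HEC1, a bHLH gene of the transmitting tract, was touched, in IM (2087 bp, 6.02), and no gene of the list in pistil. The valve margin gene SHP1, touched in pistil, and FUL were counted in the floral MADS-box list. Broad IM summits lay within 3 kb of 3 genes of the gynoecium list, HEC1, ETT and STY1. With 0.758% of all protein-coding genes touched in pistil, either list can be at 0 there without differing from all genes.

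Hormone genes were touched as follows. Of 33 auxin genes 5 were touched in IM and 2 in pistil. The influx carrier gene AUX1 (2462 bp and fold 3.03 in IM, 2221 bp and 4.27 in pistil) and ARF6 (2471 bp and 3.80, 2256 bp and 4.02) were touched in both. PID, MP and ARF10 were touched in IM, at folds of 2.92, 3.68 and 3.03. Of 18 brassinosteroid genes 2 were touched in each tissue: BZR1, a transcription factor gene of the response, in both (2435 bp and 7.33 in IM, 2279 bp and 9.19 in pistil), the synthesis gene CPD in IM (2211 bp, 4.31), and BES1, a relative of BZR1, in pistil (2141 bp, 6.41). The receptor gene BRI1 had broad regions 1578 bp (IM summit, 3030 bp wide, fold 6.41) and 1580 bp away (pistil summit, 2628 bp, 10.3), without being touched by either.

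Of 19 gibberellin genes 2 were touched in each tissue, GA2OX4 and the DELLA gene RGA in IM (2736 bp, 3.41) and GID1B and the DELLA gene GAI in pistil (2010 bp, 5.39). Of 25 cytokinin genes LOG3, an activating enzyme gene, and CKX6, a degrading enzyme gene, were touched in IM (2082 bp and 6.68, 2149 bp and 5.31) and none in pistil. None of 17 clock genes was touched in either tissue, though a broad IM summit lay within 3 kb of LUX (3635 bp, 3.31). Of 20 seed storage and root genes taken as a control none was touched, and of 11 reference genes only TUB2 was, in IM. Broad regions touched 1.91% of all protein-coding genes in IM and 0.758% in pistil. Lists this short can therefore be at 0 without differing from all genes.

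**Figure D5:**
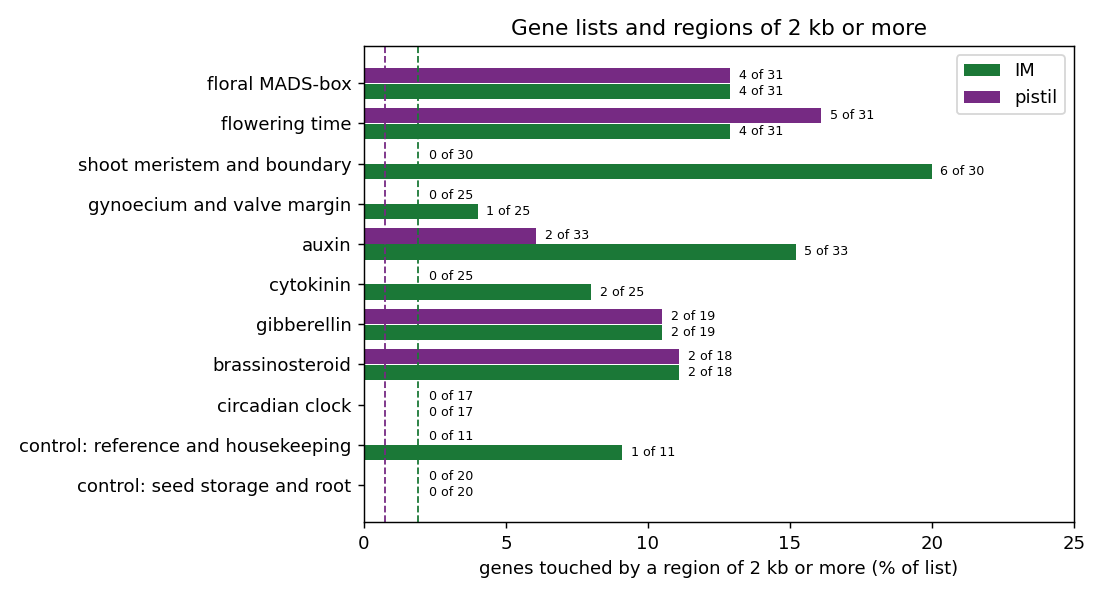
Share of each gene list (%) touched by a region of 2 kb or more in the IM list (green) and the pistil list (purple), with the number of genes beside each bar; the dashed lines are the shares of all protein-coding genes, 1.91% in IM and 0.758% in pistil. The lists were chosen with earlier results of these data known, so the shares are descriptions. The flowering and meristem lists reach 12.9 to 20.0% in IM, the auxin list 15.2% and the reference genes 9.09% (1 of 11). The clock list and the seed and root list are at 0 in both tissues. In pistil the meristem, gynoecium, cytokinin and reference lists are at 0 as well. At the dashed shares, lists this short can be at 0 without differing from all genes.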

How the data were processed

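FUL was measured by ChIP-seq of GFP-tagged protein in 2 tissues, each with 2 ChIP samples and 1 input sample, per the labels. Tools named in the submitters' processing notes, with no roles, are MACS2 2.1.0, deepTools, Picard 2.60 and Bowtie 1.1.2, and the build is TAIR10. The authors deposited 1 narrowPeak list per tissue. The fold enrichment (a ratio) and the −log10 p at the summit were used as the authors deposited them. The deposited score is the same −log10 p, times 10 and without its decimals. Peak names contain the word pooled. How the caller was set, how listed peaks were selected and how input and duplicates were treated is not given in the sources used here; the width of a region depends on such settings and on depth.

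Regions of 2000 bp or more were kept. Each region has 1 row, so rows and regions are the same. Gene names and positions came from RefSeq genes of TAIR10.1, 27444 of them protein-coding on 5 chromosomes; none of its coordinates are printed. Its register was checked by moving summits by 2 to 10 kb: 29.5% of IM and 26.0% of pistil summits lay inside genes in place, and from 60.2 to 65.0% and from 56.3 to 63.1% after moving. Strand, exons and genome sequence were not used, so no sequence is shown and the planned count of CArG boxes in promoters was not run. Regions were shared at an overlap of 1 bp or more. Shares have Wilson 95% intervals. Python 3.11.15, numpy 2.4.6, pandas 2.3.3 and scipy 1.17.1 were used, and the overlap code was tested on simulated data.

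The members and lists were chosen with earlier results of these data known. Regions named are the 10 widest and the 10 with the highest fold in each list, the 10 widest sites broad in both, those with the most summits, those at the threshold, and list genes touched; others named (regions without a partner, with a single letter or with whole genes, and those with a p unlike their fold) were chosen after their values were seen. Of all list names 3, all reference genes, did not match. 6 names were given a locus by hand. Alternatives were the width limit, the overlap rule, 1 threshold on p for both lists, the gene overlap and the summit used.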

Additional observations from a re-analysis of the deposited data

How the results depend on the processing

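Of 50 alternatives over 20 results, 24 stayed within the interval of the value reported, or within 1.5 times a count, and 26 moved. Some of the 24 could not move. Counting every row repeats the count of regions, because each region has 1 row. The single p threshold is the lowest value of the pistil list, so it leaves the number and share of broad pistil regions unchanged. With a limit of 1500 bp there were 970 IM and 573 pistil regions (26.6% and 16.4% of their lists), of which 34.6% and 59.5% were broad in both tissues and 80.6% and 97.0% had a letter, and they touched 52 and 35 list genes. With 3000 bp there were 91 and 39 (2.49% and 1.12%); 19.8% of the IM ones were broad in both, 100% of the IM ones had a letter, and they touched 8 and 6 list genes. With 1 threshold on p for both lists (−log10 p of 34.4), which removes IM regions only, broad regions made up 14.2% of the IM list; a partner was found for 83.8% of IM and 63.6% of pistil broad regions, where the pistil share was the higher in the values reported (76.9% and 81.3%), so the order of the tissues reversed. With a pistil limit of 1632 bp, which keeps the same share of that list as 2000 bp does in IM, 37.3% of IM and 39.6% of pistil broad regions were broad in both. Counting a partner only where the summit lay inside it gave 72.0% in IM. Requiring 100 bp of overlap with a gene left 27.8% of IM and 16.7% of pistil broad regions with at least 2 genes.

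The mean fold over rows and the use of all summits gave no value, because each region has 1 row. No paired analysis was possible because the peaks were called on pooled replicates, and for the same reason leaving out a replicate was not possible. Depth is unknown, so a region missing from a list, or narrower there, does not show less binding.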

Other observations

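Besides the CBF genes, ERF4, EXO and SZF1, some further genes of stress and hormone responses lay under broad regions. They are named after their values were seen. Of 35 such genes, with the CBF genes, ERF4, EXO and SZF1 among them, 12 were touched by a broad IM region and 4 by a broad pistil region. Because these genes were listed after the values were seen, their share is not comparable with that of all genes. Others of the 35, such as ERF5, ZAT12, WRKY33, WRKY40, JAZ1 and TCH4, were touched by no broad region in either tissue. MYB44 and RAV1, transcription factor genes, lay under IM regions of 3637 bp (fold 5.82) and 3457 bp (6.18), JAZ5 under 3807 bp (3.51), and the zinc-finger gene SZF2 under 3562 bp (3.28). JAZ10, a repressor gene of the jasmonate response, was touched in both tissues (2318 bp and 5.09 in IM, 2025 bp and 9.75 in pistil).

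MicroRNA genes lay under 4 broad IM regions (0.889%, against 0.438% of all) and 3 broad pistil regions (1.44%, against 0.487%), and the intervals of broad and all regions overlap in both tissues. MIR159a was under one in both, 2187 bp wide in IM (fold 4.33) and 2263 bp in pistil (5.24), with summits 8 bp apart. In IM the others were MIR319c, MIR169a (2937 bp, 5.09) and MIR5651 (3635 bp, 3.31), and in pistil MIR168a (3003 bp, 5.77) and MIR391 (2757 bp, 3.94). Long non-coding RNA genes were touched by 93 broad IM regions (20.7%, against 9.70% of all) and 48 broad pistil regions (23.0%, against 8.27%). No annotated gene of any kind was touched by 60 broad IM regions (13.3%, against 21.1%) and 33 broad pistil regions (15.8%, against 30.2%). A wide region reaches more genes by its length.

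In IM 24 neighbouring pairs lay under 5 kb apart and in pistil 5. The closest IM pairs were 68 bp apart at CUC3 and 125 bp apart at AT4G37810.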
